A study of Mus musculus with 12 samples.

Results

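Otop1, Kcnk3, Letmd1, Aspg and Pank1 are 5 genes of otherwise unrelated families that stood higher in mouse white adipose tissue after cold exposure. They were picked by name for that rise, out of 18193 genes with a probe set of their own on the array, and every probe set annotated to one of them alone was taken, 14 in all. The arrays came from male C57/BL6 mice aged 6 to 8 weeks. The animals had lived at 22 °C, and the protocol describes adaptation at 18 °C for 1 to 3 weeks before the move to 4 °C. The 4 groups of 3 arrays were cold for 5 weeks (cold_5wk), control for 5 weeks (control_5wk), cold for 1 week (cold_1wk) and control for 1 week (control_1wk). All cold mice were kept at 4 °C. For the controls the titles state 30 °C but the source names state room temperature, so their housing is uncertain here. Neither the fat depot nor the number of animals behind the 3 arrays of a group is labelled. The p-values therefore measure the spread between arrays, which may be technical.

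Brown and beige fat cells burn fuel in mitochondria to make heat, and cold drives cells of this kind to appear among white fat cells. Otop1 encodes otopetrin, a proton channel known in mice from the inner ear and from sour taste. Kcnk3 encodes a tandem pore potassium channel of the TASK family, which leaks potassium, is closed by acid outside the cell and helps to set the membrane potential. Letmd1 encodes a protein of the inner mitochondrial membrane that mouse brown fat needs for heat production. Aspg encodes an asparaginase, which splits asparagine into aspartate and ammonia. Pank1 encodes a pantothenate kinase, the enzyme of the first and rate-controlling step from vitamin B5 to coenzyme A.

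The RefSeq promoter table (GRCm38.p6) held a window for 4 of the 5 genes, with Pank1 at 2 start sites and none for Kcnk3. The windows of Letmd1 and Pank1 are shown because they differ most in composition among genes that moved together. Each line gives the 250 bases upstream of a start site, 5′ to 3′ on the gene's strand, and capitals mark AGGTCA (a nuclear receptor core site), TATAAA (the TATA box) or CCAAT (the CCAAT box) on either strand.
Letmd1, chr15:100468761-100469010, plus strand: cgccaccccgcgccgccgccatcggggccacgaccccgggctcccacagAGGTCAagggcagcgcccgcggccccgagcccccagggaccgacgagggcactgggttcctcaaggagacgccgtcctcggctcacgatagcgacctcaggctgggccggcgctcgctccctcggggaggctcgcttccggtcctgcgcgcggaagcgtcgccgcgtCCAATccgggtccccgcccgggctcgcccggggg
Pank1, chr19:34879456-34879705, minus strand: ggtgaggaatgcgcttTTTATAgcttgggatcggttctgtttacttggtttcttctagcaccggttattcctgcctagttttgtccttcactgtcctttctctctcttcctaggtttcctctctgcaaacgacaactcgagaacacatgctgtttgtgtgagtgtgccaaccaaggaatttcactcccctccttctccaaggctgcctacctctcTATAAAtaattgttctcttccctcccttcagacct
Pank1, chr19:34877918-34878167, minus strand: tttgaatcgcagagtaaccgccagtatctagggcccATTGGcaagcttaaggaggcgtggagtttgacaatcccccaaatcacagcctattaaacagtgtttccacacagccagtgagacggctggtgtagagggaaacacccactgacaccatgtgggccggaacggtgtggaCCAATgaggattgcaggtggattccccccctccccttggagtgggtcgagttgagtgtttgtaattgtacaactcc

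The Letmd1 window was 77.6% G or C, against 46.4% and 52.8% in the Pank1 windows. The Otop1 window had 70.0% and the Aspg window 56.4%. AGGTCA stood in 1 of the 5 member windows, that of Letmd1, and in 14.0% of all 32851 windows of this length. No member window held the estrogen-related receptor site TCAAGGTCA (0.387% of all windows), the direct repeat DR1, which is AGGTCA repeated after any 1 base (0.0335%), or the cyclic AMP response element TGACGTCA (1.55%). The receptor site and DR1 contain AGGTCA themselves. The TATA box stood in 1 member window (12.4% of all), the CCAAT box in 2 (33.8%) and the GC box GGGCGG in 3 (32.7%), on either strand. None of these 7 motifs stood in all 5 windows.

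Pank1 also holds the microRNA gene Mir107 within its bounds, and its relatives Pank3 and Pank2 hold Mir103-1 and Mir103-2. The mature RNAs are shown because the hosts behaved differently in the cold, as described further on. Capitals mark the seed, bases 2 to 8.
mmu-miR-107-3p, chr19:34820700-34820722, minus strand: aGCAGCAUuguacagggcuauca
mmu-miR-103-3p, chr11:35782447-35782469, plus strand: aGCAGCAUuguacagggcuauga
Both have the same seed and differ at 1 of 23 bases. The position given for miR-103 is that of the copy in Pank3, and the copy in Pank2 has the same mature sequence. The sequences are RefSeq's on GRCm38.p6, and the levels of these microRNAs were not analysed here. In the same annotation Aspg encloses Mir3073a and Mir3073b, while Kcnk3 and Letmd1 partly overlap the long noncoding RNA genes Gm9899 and 5330439K02Rik.

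Signals are log2 values, and differences are cold minus control unless stated otherwise, with the standard error (SE) of a limma fit over 12855 genes bright enough to test, 3 arrays per group. The number of arrays limits the precision. Because the 5 genes were chosen by their rise in the cold, their cold minus control values are a description and carry no test. More cells of a type and more RNA per cell cannot be told apart in whole tissue.

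Otop1 gave 11.30, 11.26 and 11.22 on the cold_5wk arrays, against 7.33, 7.57 and 7.73 on the control_5wk arrays. On the cold_1wk arrays it gave 11.03, 10.93 and 11.04, against 8.12, 5.79 and 7.70 on the control_1wk arrays. The cold arrays lay within a narrow band at both times, far above every control, and the widest spread was that of the 1 week controls, where replicate 2 was low. The difference was 3.72 at 5 weeks (SE 0.44, 13.2-fold) and 3.80 at 1 week (SE 0.44, 13.9-fold), which placed Otop1 at rank 12 and rank 10 among the tested genes. Without replicate 2 of control_1wk the 1 week difference was 3.09. The 2 other otopetrins on the array, Otop2 and Otop3, were too dim to test, with at most 2.40 and 2.88 on any array.

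Kcnk3 gave 9.24, 9.11 and 8.71 on the cold_5wk arrays, against 8.25, 8.35 and 8.39 on the control_5wk arrays, on its brightest probe set. On the cold_1wk arrays it gave 10.11, 10.05 and 9.60, against 8.82, 8.28 and 8.06 on the control_1wk arrays. The groups did not overlap at either time, but the gap between the lowest cold and the highest control array was only 0.32 at 5 weeks and 0.78 at 1 week. The difference was the smallest of the 5 genes, 0.69 at 5 weeks (SE 0.20, 1.61-fold, rank 744) and 1.53 at 1 week (SE 0.20, 2.89-fold, rank 189). It also depended on the probe set. Probe set 1426058_a_at was much dimmer, with group means of 5.47 to 5.83, and gave a difference of 0.36 at 5 weeks and 0.16 at 1 week. The still dimmer 1425342_a_at exceeded log2 4 on 2 arrays in all. With the probe sets that passed the filter averaged, the 1 week difference of Kcnk3 was 0.85.

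Letmd1 gave 11.70, 11.90 and 11.58 on the cold_5wk arrays, against 9.05, 9.16 and 8.71 on the control_5wk arrays. On the cold_1wk arrays it gave 11.96, 11.78 and 12.18, against 9.12, 8.89 and 8.94 on the control_1wk arrays. Both cold groups sat close to log2 12 and both control groups close to log2 9, with no overlap. The difference was 2.75 at 5 weeks (SE 0.14, 6.74-fold) and 2.99 at 1 week (SE 0.14, 7.92-fold). A second bright probe set of Letmd1, 1453091_s_at, gave 2.78 at 5 weeks and 3.47 at 1 week. The other 3 lay near or below the filter of log2 4. Of these, 1429289_at passed it only through 4 cold arrays, and 1441021_at gave 0.53 at 5 weeks and -0.23 at 1 week. Averaging the 4 that passed lowered the Letmd1 difference to 1.67 at 5 weeks and 1.81 at 1 week.

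Aspg, with a single probe set, gave 8.69, 8.56 and 8.49 on the cold_5wk arrays, against 5.27, 5.57 and 5.62 on the control_5wk arrays. On the cold_1wk arrays it gave 9.32, 9.05 and 9.55, against 5.43, 5.35 and 5.41 on the control_1wk arrays. All 6 controls fell within a narrow range, and each cold_5wk array was below each cold_1wk array. The difference was 3.10 at 5 weeks (SE 0.13, 8.56-fold) and 3.91 at 1 week (SE 0.13, 15.1-fold), ranks 16 and 8.

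Pank1 gave 10.61, 10.63 and 10.97 on the cold_5wk arrays, against 7.30, 7.48 and 7.42 on the control_5wk arrays. On the cold_1wk arrays it gave 10.57, 9.88 and 10.37, against 7.73, 7.28 and 7.19 on the control_1wk arrays. Here each cold_5wk array was above each cold_1wk array, the opposite order to Aspg and Kcnk3. The difference was 3.34 at 5 weeks (SE 0.19, 10.1-fold) and 2.87 at 1 week (SE 0.19, 7.32-fold). On its 2 other bright probe sets the difference was the larger at 5 weeks, but there the cold arrays of the 2 times overlapped. Probe set 1418715_at gave 3.94 at 5 weeks and 3.51 at 1 week, and 1441765_at gave 3.00 at 5 weeks and 2.60 at 1 week.

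**Figure D1:**
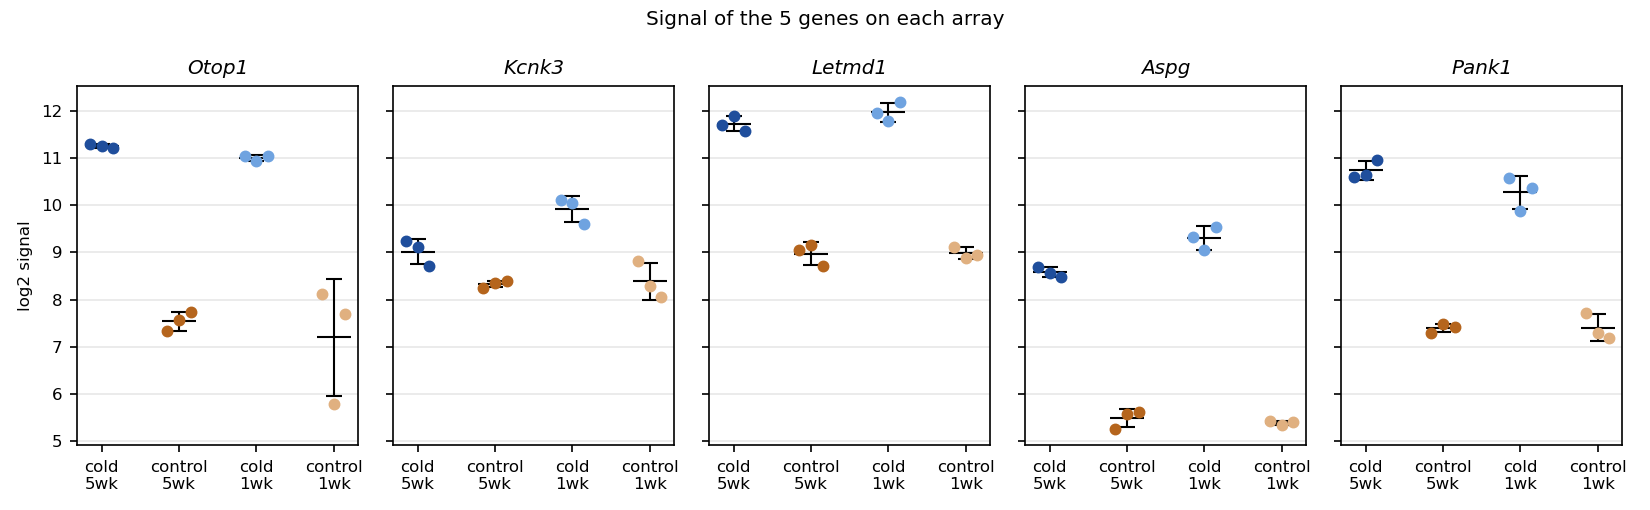
Log2 signal (vertical axis) of each gene's brightest probe set on the 12 arrays, by group; points are arrays, the bar is the mean and the whiskers are 1 SD over 3 arrays. All cold points lie above all control points of the same week, with the smallest gap for Kcnk3 (0.32 at 5 weeks) and 1 low control for Otop1 at 1 week (5.79).

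Over all 14 probe sets, 13 had every cold array above every control array at 5 weeks, and 13 at 1 week. Over all tested genes, each by its brightest probe set, the share was 28.3% at 5 weeks and 26% at 1 week. The exception at 5 weeks was the dim Kcnk3 probe set 1425342_a_at, and at 1 week it was Letmd1's 1441021_at. In all, 11 of the 14 passed the filter: 1 of 1 for Otop1, 2 of 3 for Kcnk3, 4 of 5 for Letmd1, 1 of 1 for Aspg and 3 of 4 for Pank1. Since the genes were chosen for their rise, the count of 13 was largely fixed in advance and is only a description. It counts probe sets of the same gene separately and includes some too dim to pass the filter, unlike the share over all tested genes.

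**Figure D2:**
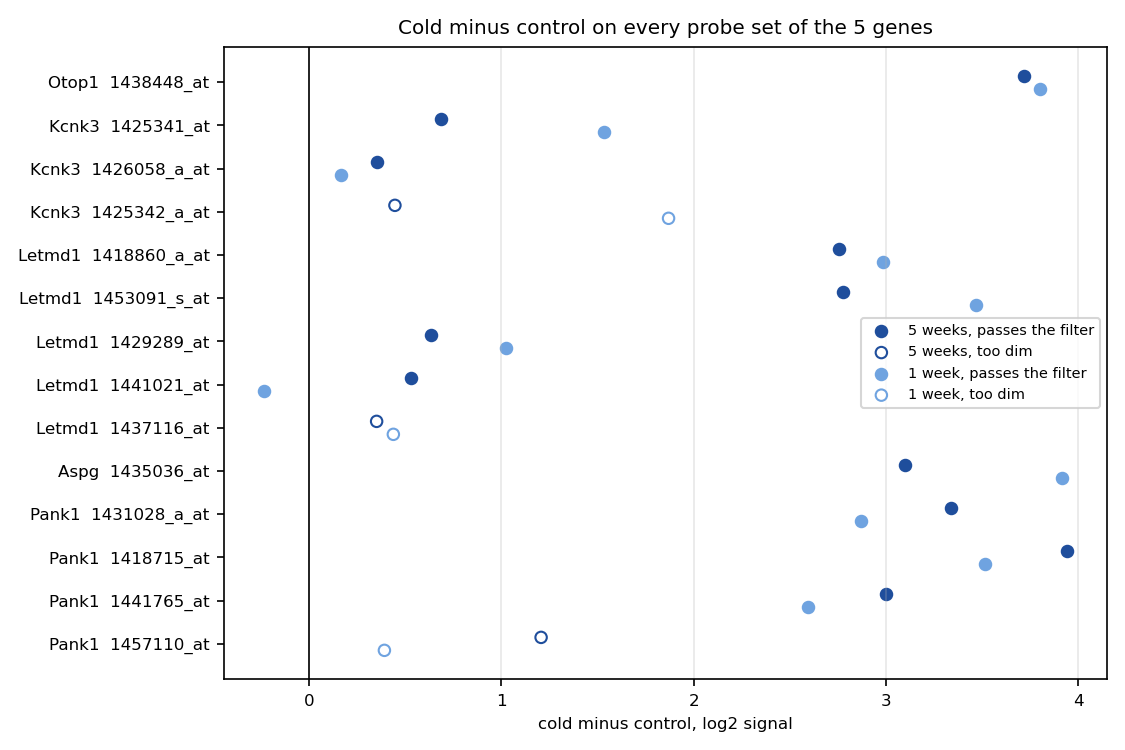
Cold minus control (horizontal axis, log2 signal) on each of the 14 probe sets, dark points for 5 weeks and light points for 1 week; open points are probe sets too dim to pass the filter. The bright probe sets of Letmd1 lie between 2.75 and 3.47 and those of Pank1 between 2.60 and 3.94. The brightest Kcnk3 probe set gave 1.53 at 1 week, and a much dimmer one that passed the filter gave 0.16.

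The levels of the 5 genes were also compared between the durations. The contrast of 5 weeks against 1 week, averaged over cold and control, does not overlap with the cold against control contrasts that chose the genes, and it was tested with limma over all genes. By it 12.6% of the tested genes were called at a Benjamini-Hochberg adjusted p under 0.05, 6.01% higher and 6.57% lower at 5 weeks. Kcnk3 was lower at 5 weeks by -0.48 (SE 0.14, limma adjusted p = 0.0499) and Aspg by -0.32 (SE 0.09, limma adjusted p = 0.0465). Both sat at the threshold. With 1 array left out, the Kcnk3 call held in only 3 of 12 fits, those without cold_5wk replicate 1, cold_1wk replicate 3 or control_1wk replicate 3, and the Aspg call held only without cold_1wk replicate 2. Over all alternatives the limma adjusted p ran between 0.00725 and 0.446 for Kcnk3 and between 0.0154 and 0.403 for Aspg. Otop1 gave 0.30 (SE 0.31, limma adjusted p = 0.569), Letmd1 -0.13 (SE 0.10, limma adjusted p = 0.434) and Pank1 0.23 (SE 0.13, limma adjusted p = 0.27).

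Each duration shift was also split by condition. Within the cold, 5 weeks minus 1 week was -0.90 for Kcnk3 (SE 0.20) and -0.73 for Aspg (SE 0.13), and within the controls it was -0.06 for Kcnk3 and 0.09 for Aspg. Pank1 gave 0.46 within the cold (SE 0.19) and -0.00 within the controls. For Letmd1 the value was -0.25 within the cold (SE 0.14) and -0.01 within the controls. For Otop1 it was 0.26 within the cold and 0.34 within the controls (SE 0.44 each). Other probe sets that passed the filter split differently. On Pank1's 1418715_at the value was -0.07 within the cold and -0.50 within the controls, and on its 1441765_at 0.17 within the cold and -0.23 within the controls. Kcnk3's much dimmer 1426058_a_at gave 0.19 within the cold, opposite in sign to the brightest probe set, and Letmd1's 1453091_s_at gave -0.87. These within-condition values carry no test, because they use the arrays of the contrasts that chose the genes. The cold effect at 5 weeks minus that at 1 week was -0.84 for Kcnk3 (SE 0.29), -0.82 for Aspg (SE 0.19), -0.23 for Letmd1 (SE 0.20), -0.08 for Otop1 (SE 0.62) and 0.46 for Pank1 (SE 0.26), likewise untested. By that contrast 19.8% of all tested genes were called, 11.5% with the higher cold effect at 5 weeks and 8.38% with the lower. For Kcnk3 the difference of the cold effects depended on the setting. Its 1426058_a_at gave a cold effect of 0.36 at 5 weeks and 0.16 at 1 week. With the Gapdh gap described below as a covariate, its brightest probe set gave 0.99 at 5 weeks and 1.05 at 1 week. Aspg gave 3.16 at 5 weeks and 3.80 at 1 week with that covariate.

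Signals of RNA quality and of other cell types differed between the arrays, and their part in the differences of the 5 genes was not tested beyond the values given here. Over all tested genes 15% rose and 21.2% fell at 5 weeks, and 17.9% rose and 31.6% fell at 1 week. Of 9 tested brown or beige fat markers, Ucp1 and Cidea among them, 8 rose at 5 weeks and 8 at 1 week. Their mean signal was 10.79 to 11.31 on cold_5wk and 6.87 to 7.24 on control_5wk arrays, and 11.22 to 11.61 on cold_1wk and 6.67 to 7.31 on control_1wk arrays. The mean signal of the markers listed for white fat was high on every array, but lower in the cold. It was 13.05 to 13.11 on cold_5wk and 13.64 to 13.76 on control_5wk arrays, and 12.86 to 13.08 on cold_1wk and 13.52 to 13.71 on control_1wk arrays. Of the 5 tested, 3 fell and 1 rose at 5 weeks, and 2 fell and 1 rose at 1 week. The 1 week counts lay near the shares over all tested genes. Nnat, neuronatin, fell most, by -1.90 at 5 weeks and -2.86 at 1 week, and weighed most in the lower mean. The others gave -0.89 for Lep, -0.47 for Retn, -0.15 for Adipoq and 0.23 for Fabp4 at 5 weeks. At 1 week they gave -0.55 for Lep, -0.12 for Retn, -0.03 for Adipoq and 0.32 for Fabp4. The 13 tested skeletal muscle markers averaged 4.60 to 4.79 on cold_5wk arrays and 8.09 to 8.40 on control_5wk arrays, and reached 9.69 on cold_1wk replicate 2 alone among the 1 week arrays. Without that array the 1 week differences were 3.84 for Otop1, 1.46 for Kcnk3, 3.08 for Letmd1, 4.04 for Aspg and 3.07 for Pank1. The Gapdh controls at the 3′ and 5′ ends of the transcript, whose gap widens as RNA degrades, differed by near 3 log2 units on cold_5wk replicate 3 (3.01) and on control_1wk replicates 2 (3.00) and 3 (3.12), and at most 0.96 on the other 9 arrays. Without those 3 arrays the 1 week differences were 2.89 for Otop1, 1.10 for Kcnk3 and 2.55 for Pank1, and all 5 genes stayed higher in the cold, although a single control_1wk array was then left and its spread was taken from the other groups. The same gap of the Actb controls was 2.03, 1.84 and 2.80 on the cold_5wk arrays, against 1.04, 1.10 and 1.16 on the control_5wk arrays, and 1.01 to 1.35 on the 1 week arrays, so it set the whole cold_5wk group apart. With the Actb gap as a covariate the 5 week differences were 4.04 for Otop1 (SE 0.95) and 1.00 for Kcnk3 (SE 0.42). They were 3.15 for Letmd1 (SE 0.27), 3.26 for Aspg (SE 0.28) and 2.88 for Pank1 (SE 0.37). The gap split the 5 week groups without overlap, so RNA quality and cold cannot be told apart by that covariate. The muscle markers split these groups likewise. With their mean as a covariate the 5 week differences were 3.50 for Otop1, 0.85 for Kcnk3, 2.53 for Letmd1, 2.83 for Aspg and 2.89 for Pank1.

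**Figure D3:**
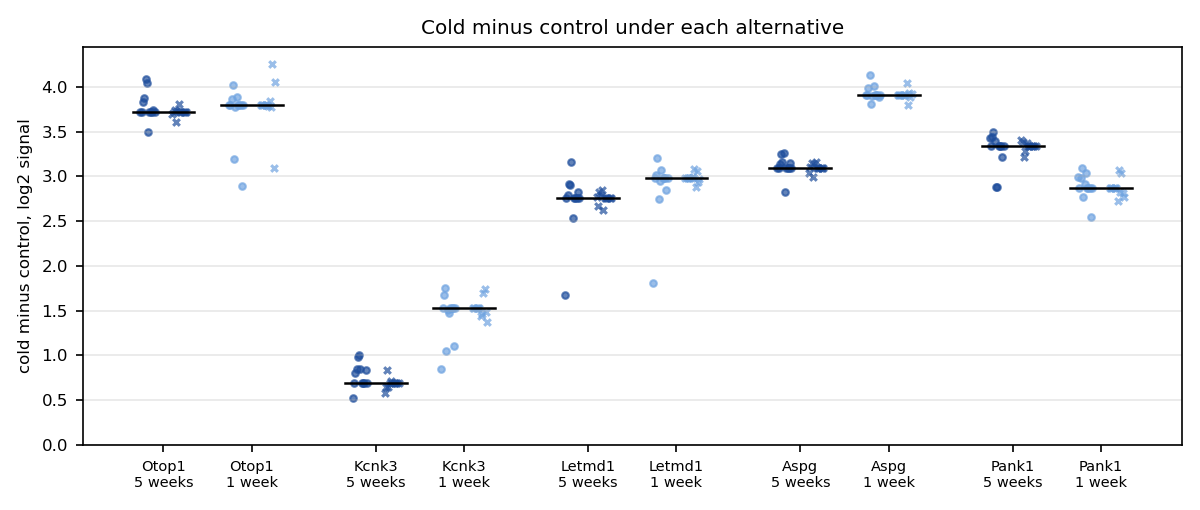
Cold minus control (vertical axis, log2 signal) of the 5 genes at 5 weeks and 1 week; the black line is the value reported, dots are the alternative settings and crosses are fits that leave out 1 array. Every value lies above 0, and averaging probe sets gave the widest drops, to 1.67 at 5 weeks and 1.81 at 1 week for Letmd1, and took Kcnk3 to 0.85 at 1 week.

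Genes of the same families and pathways were tested in the cold, since their values did not choose the 5 genes. The lists of these relatives were, however, drawn up with earlier results of these data known. Of 71 listed relatives 64 were on the array and 52 bright enough. At 5 weeks, when 36.2% of all tested genes were called either way, 14 rose and 6 fell, where 15% of all tested genes rose and 21.2% fell (limma, adjusted p under 0.05). At 1 week, when 49.5% were called either way, 16 rose and 12 fell, where 17.9% of all tested genes rose and 31.6% fell. Their median difference was 0.04 at 5 weeks and 0.09 at 1 week, against -0.03 and -0.08 over all tested genes. Subtracting each array's median put the difference of the median gene at 0.13 at 5 weeks and 0.14 at 1 week, and rises then made up 66.6% of all calls at 5 weeks in place of 41.4%, and 63.9% at 1 week in place of 36.2%. For 5 weeks against 1 week the share of higher calls became 36.2% in place of 47.8%, and for the difference of the cold effects 45.7% in place of 57.8%. The falls of relatives under that setting numbered 3 at 5 weeks and 6 at 1 week. Among the falls described next, centring ended the calls of Kcnk6 (-0.23), Slc5a6 (-0.61) and Atp1b1 (-0.47) at 5 weeks, and of Pank3 (-0.32), Kcnk13 (-0.24), Kcnn4 (-0.19), Abcc9 (-0.27), Atp1b1 (-0.28) and Adsl (-0.25) at 1 week.

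The coenzyme A genes were the longest list tested. Of 14 tested relatives of Pank1, 6 rose and 1 fell at 5 weeks, and 7 rose and 3 fell at 1 week. Beside this count and those of the lists below, 15% of all tested genes rose and 21.2% fell at 5 weeks. At 1 week 17.9% rose and 31.6% fell. Coasy, which carries out the last steps of coenzyme A synthesis, gave 9.98, 10.22 and 9.85 on cold_5wk arrays, against 9.02, 9.09 and 8.94 on control_5wk arrays. It rose by 1.00 at 5 weeks (SE 0.13, limma adjusted p = 0.000177) and by 1.85 at 1 week (SE 0.13, limma adjusted p = 2.69e-06). Ppcs, the enzyme of the step after pantothenate kinase, rose by 0.37 at 5 weeks and 1.01 at 1 week. The 5 week call of Ppcs was lost without cold_5wk replicate 3 (0.33) or control_5wk replicate 1 (0.32) or 3 (0.33). Slc25a42, which carries coenzyme A into mitochondria, gave 8.72, 8.97 and 9.06 on cold_5wk arrays, against 6.88, 6.87 and 7.05 on control_5wk arrays, and rose by 1.98 at 5 weeks (SE 0.15) and 1.14 at 1 week (SE 0.15). Nudt7 and Nudt19, peroxisomal hydrolases that break coenzyme A down, rose by 1.34 and 0.81 at 5 weeks and by 1.70 and 0.90 at 1 week, and Nudt8, their mitochondrial counterpart, by 1.16 at 1 week, with -0.15 at 5 weeks (limma adjusted p = 0.595). Aasdhppt, which transfers the phosphopantetheine arm of coenzyme A to carrier proteins, rose by 0.50 and 0.51.

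The other pantothenate kinase genes did not rise. Pank2 gave -0.04 at 5 weeks (SE 0.09, limma adjusted p = 0.788) and -0.06 at 1 week (SE 0.09, limma adjusted p = 0.629), and its sign turned when arrays were centred. Pank3 fell by -0.54 at 1 week (SE 0.12, limma adjusted p = 0.00404) and gave -0.34 at 5 weeks (SE 0.12, limma adjusted p = 0.0522), but a dimmer probe set of it gave 0.61 at 1 week and -1.26 at 5 weeks. Pank4 fell by -0.72 at 1 week, a call lost with the Gapdh gap as a covariate (-0.38), and gave -0.17 at 5 weeks (limma adjusted p = 0.485). The Pank3 value at 5 weeks passed the threshold when any of cold_1wk replicates 1 and 2 and control_1wk replicates 2 and 3 was left out, with the value itself the same. It was also a called fall under quantile normalization (-0.44, limma adjusted p = 0.0171) and with the probe sets averaged (-0.80, limma adjusted p = 0.0163). So Pank1, the host of miR-107, was higher in the cold, while neither host of miR-103, which has the same seed, rose on the probe set used. Vnn1, a pantetheinase that recycles vitamin B5, fell by -1.52 at 1 week (SE 0.26) and gave 0.57 at 5 weeks (SE 0.26, limma adjusted p = 0.103, or 0.0251 without control_1wk replicate 2). Its 5 week value was a called rise when arrays were centred (0.73, limma adjusted p = 0.0406), but turned to -0.07 with the Actb gap as a covariate. Slc5a6, the transporter that takes up the vitamin, fell by -0.76 at 5 weeks at the threshold (SE 0.28, limma adjusted p = 0.0499), and the call was lost in 9 of 12 fits that left out 1 array, down to -0.53 without cold_5wk replicate 3.

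**Figure D4:**
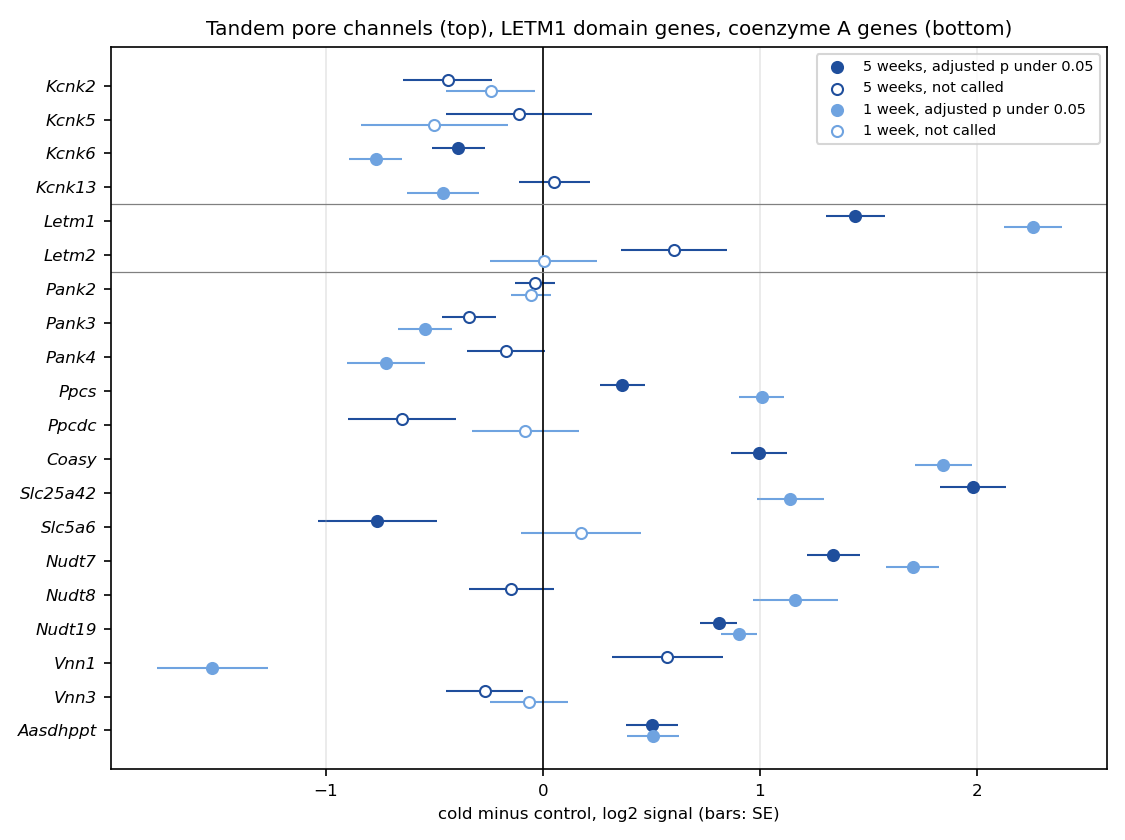
Cold minus control (horizontal axis, log2 signal, bars 1 SE) of the tested relatives of Kcnk3 (top), Letmd1 (middle) and Pank1 (bottom), dark for 5 weeks and light for 1 week; filled points have an adjusted p under 0.05. Letm1, Coasy, Ppcs, Slc25a42, Nudt7, Nudt19 and Aasdhppt were called higher at both times in the fit without covariates. None of the 4 tandem pore channels tested rose.

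Letm1, which encodes the LETM1 domain protein that exchanges protons for cations across the inner mitochondrial membrane, rose with Letmd1. It gave 10.31, 10.48 and 9.997 on cold_5wk arrays, against 8.79, 8.79 and 8.89 on control_5wk arrays. On cold_1wk arrays it gave 11.26, 11.12 and 11.21, against 9.11, 8.69 and 9.02 on control_1wk arrays. The rise was 1.44 at 5 weeks (SE 0.13, limma adjusted p = 2.11e-05) and 2.26 at 1 week (SE 0.13, limma adjusted p = 1.17e-06), with no overlap of the groups. Letm2 gave 0.60 at 5 weeks (SE 0.24, limma adjusted p = 0.0755, or 0.0437 without cold_1wk replicate 1 and 0.0466 without control_1wk replicate 3) and 0.00 at 1 week (SE 0.24, limma adjusted p = 0.994). Its 5 week value was a called rise when arrays were centred (0.76, limma adjusted p = 0.0274) and under quantile normalization (0.72, limma adjusted p = 0.0479). A dimmer probe set of Letm2 gave 0.11 at 5 weeks.

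Of 11 other tandem pore potassium channels on the array 4 were bright enough to test, and none of these rose. Kcnk6 fell by -0.39 at 5 weeks (SE 0.12, limma adjusted p = 0.0277) and by -0.77 at 1 week (SE 0.12, limma adjusted p = 0.000414), and Kcnk13 fell by -0.46 at 1 week (SE 0.16, limma adjusted p = 0.037). The 5 week call of Kcnk6 was lost without cold_5wk replicate 1 (-0.34) or 2 (-0.35) or control_5wk replicate 3 (-0.28). That of Kcnk13 was lost without any 1 cold_1wk array (-0.38 to -0.51) or without control_1wk replicate 2 (-0.27). Of 9 other tested genes that bear on the membrane potential, 1 rose and 1 fell at 5 weeks, and 1 rose and 4 fell at 1 week. Kcnj8, a pore subunit of channels gated by ATP, rose by 0.36 at 5 weeks, and Atp1b1, a subunit of the sodium pump, fell by -0.63 at 5 weeks and -0.50 at 1 week. The Kcnj8 call was lost with the Actb gap (0.55) or the muscle marker signal (0.38) as a covariate. The Atp1b1 call was lost in 4 of 12 fits with 1 array left out at 5 weeks, down to -0.52 without control_5wk replicate 1, and in 9 of 12 at 1 week, down to -0.33 without control_1wk replicate 3. Abcc9, the regulatory subunit that pairs with Kcnj8, fell by -0.49 at 1 week (lost with its probe sets averaged, at -0.24), and so did Kcnn4, a calcium-gated potassium channel, by -0.41 (lost without cold_1wk replicate 3, at -0.35, or control_1wk replicate 3, at -0.31). Lrrc8a, a volume-regulated anion channel, fell by -0.84 at 1 week. Kcnj15, an inward rectifier, rose by 0.71 at 1 week (lost without cold_1wk replicate 3 or control_1wk replicate 2 or 3, at 0.56 to 0.58).

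Of 10 tested genes of asparagine and aspartate metabolism, 3 rose and none fell at 5 weeks, and 3 rose and 1 fell at 1 week. Aspa, which releases acetate and aspartate from N-acetylaspartate, rose by 1.65 at 5 weeks (SE 0.09, limma adjusted p = 9.74e-07) and 1.27 at 1 week (SE 0.09, limma adjusted p = 4.17e-06). Got1, the cytosolic aspartate aminotransferase, rose by 0.84 at 5 weeks and 1.22 at 1 week. Asns, which makes asparagine and so runs opposite to Aspg, rose by 0.48 at 5 weeks (SE 0.12, limma adjusted p = 0.0105). At 1 week Asns gave 0.01 (limma adjusted p = 0.929), and its 5 week call was lost with the Actb gap as a covariate (0.23). Adssl1, the muscle form of adenylosuccinate synthase, rose by 1.33 at 1 week, and Adsl, the enzyme of the following step, fell by -0.47. The Adsl call was also lost under quantile normalization (-0.26) and with the Gapdh covariate (-0.27). Without cold_1wk replicate 2, the array with bright muscle markers, the rise of Adssl1 was 1.12.

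Among 13 tested genes of proton and acid handling, 3 rose and 3 fell at 5 weeks, and 4 rose and 2 fell at 1 week. Slc4a4, a sodium bicarbonate cotransporter, rose by 2.41 at 5 weeks (SE 0.21, limma adjusted p = 1.24e-05) and 1.80 at 1 week (SE 0.21, limma adjusted p = 5.31e-05). Slc16a1, which moves lactate and other monocarboxylates together with protons, rose by 1.63 at both times. Car4, a carbonic anhydrase at the cell surface, rose by 0.58 at 5 weeks and 0.89 at 1 week, and Car14 rose by 0.98 at 1 week. Car14 was dim, with 5.00, 5.00 and 4.28 on cold_1wk arrays against 3.22, 3.96 and 4.16 on control_1wk arrays. It gave 0.06 at 5 weeks (limma adjusted p = 0.864). Hvcn1, a voltage-gated proton channel of immune cells, fell by -0.75 at 5 weeks and -0.83 at 1 week, and Gpr65, an acid-sensing receptor of immune cells, fell by -1.06 and -1.49. The 5 week calls were lost with the Actb gap as a covariate (-0.57 for Hvcn1, -1.27 for Gpr65). With the muscle marker signal as a covariate they were lost too (-0.50 for Hvcn1, -0.91 for Gpr65). Immune markers fell beside Hvcn1 and Gpr65: 7 of 8 macrophage and 7 of 7 lymphocyte markers at each time, while the macrophage marker C1qa rose by 1.53 at 1 week. Over all tested genes 21.2% fell at 5 weeks and 31.6% at 1 week. Mean macrophage marker signal was 10.78 to 11.11 on cold_5wk and 11.85 to 11.86 on control_5wk arrays, and mean lymphocyte marker signal 9.08 to 9.20 on cold_5wk and 10.07 to 10.13 on control_5wk arrays. The part of these cells in the falls of Hvcn1 and Gpr65 was not tested. Slc4a2, an anion exchanger, fell by -0.96 at 5 weeks, a call lost without cold_5wk replicate 3 (-0.90) or control_5wk replicate 1 (-0.85).

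Genes with the most similar profile were found by the mean absolute difference, in log2 units over the 12 arrays, after each gene's own mean was taken off. For Otop1 these were Pdk4 (0.30), an inhibitor of pyruvate dehydrogenase, Plin5 (0.42), a lipid droplet protein, and Gys2 (0.44), a glycogen synthase. For Kcnk3 they were Pmvk (0.11), an enzyme of cholesterol synthesis, Ptges2 (0.12) and Atpaf2 (0.12), an assembly factor of ATP synthase. Letmd1 lay nearest to Slc25a20 (0.19), the mitochondrial carnitine carrier, Cideb (0.21) and Gys2 (0.21). Aspg lay nearest to Kng1 (0.25), which encodes kininogen, Clstn3 (0.30) and Ttc25 (0.33), and Pank1 to Slc25a20 (0.27), Dio2 (0.30), which activates thyroid hormone, and Gys2 (0.32). Among the 5 genes themselves the closest pair was Letmd1 and Pank1 (0.29), and the farthest was Otop1 and Kcnk3 (1.32). The likeness mainly follows the gap between cold and control arrays.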

How the data were processed

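White adipose tissue RNA (5 µg per array, biotin label) was measured on 12 Affymetrix arrays. The authors deposited 1 table of log2 signals for 45101 probe sets, made with GCRMA per the submitters' processing notes, which corrects background, normalizes between arrays and summarises probes. No version or setting of it is given in the labels.

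Symbols came from the platform annotation, updated through the gene identifier for 34754 of the 34958 probe sets that name 1 gene. The 932 that name several genes and the 64 control probe sets were left out. Only probe sets brighter than log2 4 on 3 or more arrays were kept, and the one with the highest mean stood for its gene. limma 3.58.1 in R 4.3.3 fitted 4 group means to all 12 arrays (lmFit, eBayes, 2-sided), with Benjamini-Hochberg adjustment over 12855 genes at 0.05, and was tested on simulated data. Calls rest on the adjusted p alone.

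The 5 genes, their relatives and the marker lists were chosen with earlier results of these data known. Relatives were named if called in a contrast, together with the other Pank and Letm genes. The 7 motifs and the sequences printed were chosen after the sequences were seen. For each gene the 3 nearest profiles were named. Replicates within a group correlated at 0.991 to 0.998. Alternatives changed the probe set rule, filter, scaling, covariates, replicate block and arrays used.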

Additional observations from a re-analysis of the deposited data

Results flagged for a closer look

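For 9 relatives the cold effect differed between the durations (interaction in the limma fit, adjusted p under 0.05), as it did for 19.8% of all tested genes. The difference, 5 weeks minus 1 week, was -0.82 for Letm1 (SE 0.19), -0.64 for Ppcs (SE 0.15), -0.85 for Coasy (SE 0.18), -1.31 for Nudt8 (SE 0.28), -1.27 for Adssl1 (SE 0.29) and -1.10 for Kcnj15 (SE 0.33), all lower at 5 weeks. It was 0.84 for Slc25a42 (SE 0.22), 2.10 for Vnn1 (SE 0.36) and 1.19 for Lrrc8a (SE 0.20), all higher at 5 weeks. Vnn1 gave 9.06, 8.91 and 9.20 on cold_5wk arrays, against 8.46, 8.44 and 8.55 on control_5wk arrays, and 7.45, 6.77 and 6.79 on cold_1wk arrays, against 8.29, 9.20 and 8.10 on control_1wk arrays. With the Gapdh 3′ to 5′ gap as a covariate the values were -0.27 for Letm1, -0.58 for Ppcs, -0.29 for Coasy, -0.40 for Nudt8, -1.58 for Adssl1, -0.98 for Kcnj15, 0.77 for Slc25a42, 1.73 for Vnn1 and 0.68 for Lrrc8a. With the Actb gap they were -0.27 for Letm1, -0.72 for Ppcs, -0.45 for Coasy, -0.45 for Nudt8, -0.92 for Adssl1, -1.52 for Kcnj15, 0.64 for Slc25a42, 1.40 for Vnn1 and 0.69 for Lrrc8a. Every sign was kept and none of the 9 was called, in fits that called 3 and 0 of all 12855 genes, against 2551 without a covariate. With probe sets averaged the calls of Letm1 (-0.32, limma adjusted p = 0.31) and Coasy (-0.49, limma adjusted p = 0.07) ended. With the muscle marker signal as a covariate Adssl1 gave -0.64. None of the 9 was called with the control_5wk arrays counted as 1, in a fit that called 1 of all genes, and 1 was called without the 3 arrays of highest Gapdh 3′ minus 5′ signal. With single arrays left out, the call of Slc25a42 was lost in 4 of 12 fits (0.77 to 0.82) and that of Kcnj15 in 7 of 12 (-0.87 to -1.10). The part of RNA quality in these differences was not tested further.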

How the results depend on the processing

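The cold minus control values of the 5 genes stayed above 0 under every alternative run. The settings without the 3 arrays of highest Gapdh 3′ minus 5′ signal and with the control_5wk arrays averaged were chosen after seeing the data, the averaging because the control_5wk arrays correlated at 0.997 to 0.998, more closely than other replicates; the cause of a change was not tested unless stated. Centring on the median gave 3.87 for Otop1, 3.25 for Aspg and 3.49 for Pank1 at 5 weeks and 3.21 for Letmd1 and 4.13 for Aspg at 1 week, turned Pank2 to 0.12 at 5 weeks and 0.16 at 1 week, and left 3 and 6 relatives lower. Quantile normalization turned Pank2 to 0.042 and 0.14. The Gapdh covariate gave 4.09 for Otop1 and 0.99 for Kcnk3 at 5 weeks, 1.05 for Kcnk3, 2.75 for Letmd1 and 0.081 for Pank2 at 1 week, 3035 genes called at 1 week in place of 6361, 6 relatives lower at 1 week, and 3 genes and 0 relatives with an interaction in place of 2551 and 9. The Actb covariate gave 4.04 for Otop1, 1.00 for Kcnk3, 3.15 for Letmd1, 3.26 for Aspg, 2.88 for Pank1 and -0.067 for Vnn1 at 5 weeks, with 795 genes called in place of 4655, 9 relatives higher and 0 lower, and 0 interactions. The muscle covariate gave 3.50 for Otop1, 2.53 for Letmd1, 2.83 for Aspg, 2.89 for Pank1 and 0.077 for Pank4 at 5 weeks and -0.014 for Letm2 at 1 week, with 2283 genes called and 0 relatives lower at 5 weeks, and 753 genes and 3 relatives with an interaction. Without the 3 arrays of highest Gapdh 3′ minus 5′ signal the 1 week values were 2.89 for Otop1, 1.10 for Kcnk3 and 2.55 for Pank1, with 3156 genes called and 7 relatives lower, and 160 genes and 1 relative had an interaction; that setting leaves 1 control_1wk array, assumed to vary like the other groups. With the control_5wk arrays counted as 1, 1608 genes were called at 5 weeks, with 9 relatives higher and 1 lower, and 1 gene and 0 relatives had an interaction; fewer arrays entered these fits. Averaging probe sets gave 0.85 for Kcnk3, 1.81 for Letmd1, 0.033 for Pank3 and -0.075 for Letm2 at 1 week and 1.67 for Letmd1 at 5 weeks.

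For 5 weeks against 1 week, the Kcnk3 call was lost with probe sets averaged (-0.19), no filter (-0.48, more genes tested), the Actb covariate (-0.35) and control_5wk counted as 1 (-0.48), with -0.56 to -0.37 over single arrays left out. The Aspg call was lost with no filter (-0.32), quantile normalization (-0.32), centring (-0.35), the Actb (-0.25) and muscle (-0.27) covariates, eBayes with trend (-0.32), without the 3 arrays of highest Gapdh signal (-0.31) and with control_5wk counted as 1 (-0.32), with -0.38 to -0.26 over single arrays left out. The replicate block also ended it (-0.32, limma adjusted p = 0.0616) and changed no other call of the 5 genes; it ended the Atp1b1 call at 1 week (adjusted p = 0.0562) and gave Letm2 one at 5 weeks (0.00877). Replicate numbers did not pair the arrays: deviations of same-numbered arrays correlated between -0.03 and 0.07 in the 6 pairs. The sign turned for Otop1 without the 3 arrays (-0.15; -0.055 to 0.53 over single arrays), for Letmd1 with the Actb covariate (0.028) and for Pank1 with probe sets averaged (-0.026). The genes called numbered 1616, and 127 with the Actb covariate, 897 without the 3 arrays, 162 with control_5wk counted as 1 and 879 to 1788 over single arrays left out. Over the same fits 1381 to 3021 genes had an interaction, 3 to 7 relatives fell at 5 weeks, Pank2 gave -0.14 to 0.044 at 5 weeks and Letm2 -0.21 to 0.25 at 1 week. Of 1536 values of named relatives over all alternatives, 1338 kept direction and side of the threshold, 168 lost the call, 15 gained it and 15 turned.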
